A study of Peromyscus maniculatus with 16 samples.

Results

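Expression of 7 genes of the sterol pathway, Hmgcs1, Mvd, Fdft1, Sqle, Lss, Srebf2 and Ebpl, was followed through the livers of outbred deer mice. The genes were taken as the lines of the count table that carry these symbols, which gave 7 of 16910 genes, and all 7 passed the filter on low counts that left 12639 genes for testing. The working name of the set includes LDL uptake, but none of the 7 genes encodes a protein of LDL uptake.

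The livers came from 16 deer mice (Peromyscus maniculatus) that were 10 months old at the end of the study, none of which carried a transgene or an engineered allele. Of these, 6 ate regular chow and served as controls (C). The other 10 ate a high fat diet (HFD) rich in sucrose for 28 weeks, after which histology found steatosis, the storage of fat droplets in hepatocytes, in 5 of them (S) and none in the remaining 5 (NS). All animals were of the BW stock, a closed colony of P. maniculatus bairdii, except C1, NS1 and S1, which were of the SM2 stock, P. maniculatus sonoriensis. All were male except S2, S4 and S5, so that effects of sex and of steatosis cannot be told apart in the females. Animals were not assigned to NS or S but sorted by their own response to the diet.

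Cells make cholesterol from acetyl-CoA in a chain of reactions that leads through mevalonate to the isoprenoids, to squalene and finally to the sterols. Hmgcs1 encodes the cytosolic HMG-CoA synthase near the start of the chain, Mvd decarboxylates mevalonate diphosphate, Fdft1 is squalene synthase, Sqle is squalene epoxidase and Lss closes the rings to form lanosterol. Srebf2 encodes SREBP-2, the transcription factor that is carried from the endoplasmic reticulum and cleaved when membrane cholesterol is low, and that then switches on the enzymes of the chain. Ebpl encodes a relative of the sterol isomerase EBP, for which no isomerase activity is established. The liver is a major site of this pathway.

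Total counts per animal ranged from 4640733 to 11349971, and S3 and S2 were the 2 shallowest libraries, with 4640733 and 4865756 counts. The members had between 48 and 3009 counts in every animal. Hepatocyte markers were abundant in every liver, with 6 of the 8 listed genes in the table and a summed level, in counts scaled to a common library size (CPM), of 46998 to 66694 CPM in C, 50438 to 76989 in NS and 35994 to 55486 in S, where S5 had the lowest sum of all 16 livers. In S vs C, 1 of these 6 genes was higher and 4 were lower at an adjusted p under 0.1. The 5 Kupffer cell and macrophage markers summed to 154 to 390 CPM in C, 152 to 353 in NS and 85.4 to 596 in S, with the highest sum in S5. Of the 5 stellate cell and fibroblast markers, 1 was higher and 1 lower in S vs C at an adjusted p under 0.1, Col1a1 and Dcn. Col1a1 was at 2058 CPM in S3 and at 3.26 to 17.0 CPM in the other 15 animals. Dcn was at 103 to 184 CPM in S against 172 to 389 CPM in C. Col3a1 and Lrat leaned the other way from Dcn, at 63.4 to 129 and 2.06 to 7.85 CPM in S against 32.2 to 103 and 1.38 to 3.13 CPM in C. That list summed to 233 to 440 CPM in C, 176 to 331 in NS and 181 to 2280.0 in S. Of 3 neutrophil markers tested, 2 were lower in S vs C at an adjusted p under 0.1, and the 4 listed summed to 26.0 to 73.7 CPM in C, 8.89 to 53.9 in NS and 4.45 to 19.6 in S. Of the adipocyte markers, Lep was at 0 in every animal and Adipoq, Plin1 and Cfd were at or near 0. The part of these cells in the results below was not tested, and in whole tissue fewer cells of a type and less RNA per cell cannot be told apart.

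The 5 enzymes of the set were all highest in S2 and, within S, all lowest in S5, while some other animals differed between enzymes. NS1 was the highest NS animal for Mvd and the lowest for Sqle. Expression was given as CPM with TMM library sizes, and the enzyme mean is the average over the 5 enzymes of log2 CPM centred on each gene's own mean. The mean was highest in S2, at 2.12, followed by S1 at 1.45 and by the chow animal C3 at 0.95, and it was lowest in S5, at -1.82. Within S, the highest animal exceeded the lowest 15.3-fold, compared with 4.35-fold within C and 1.79-fold within NS. The animals with steatosis held both ends of the range, and both ends were females of the BW stock.

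**Figure D1:**
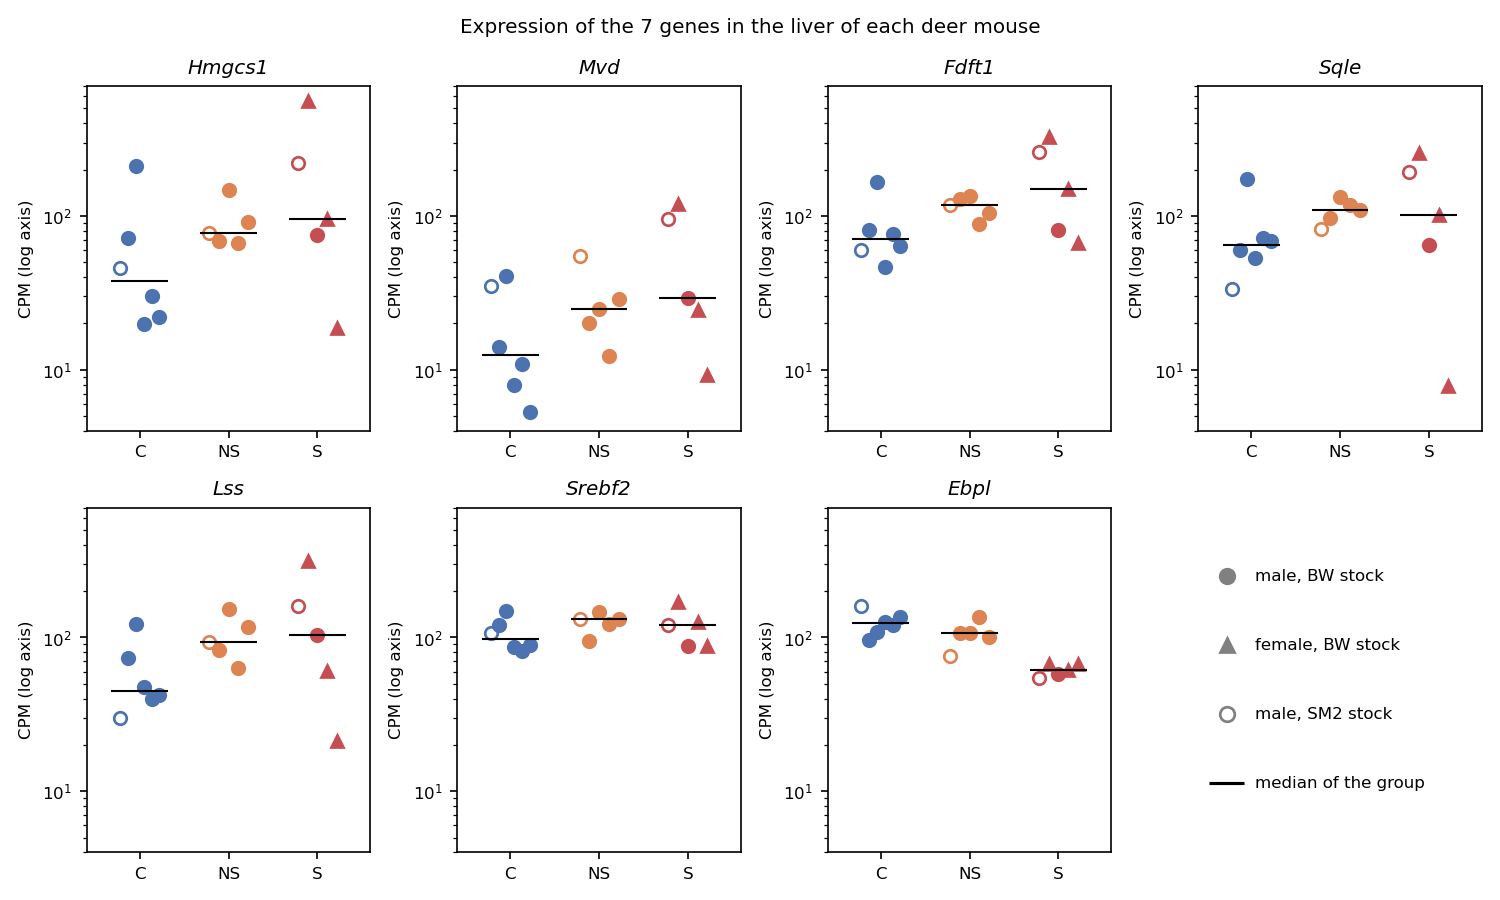
Expression of the 7 genes as CPM on a log axis in each animal of C (n = 6), NS (n = 5) and S (n = 5), with filled circles for BW males, triangles for BW females, open circles for SM2 males and bars for group medians. S2 is the highest and S5 the lowest animal of S for all 5 enzymes, whereas Ebpl lies between 54.8 and 67.7 CPM in all S animals, below every animal of C and NS.

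The comparison of S with C asks how livers with steatosis on HFD differed from livers on chow. A gene was called when its Benjamini-Hochberg adjusted p in edgeR's quasi-likelihood test was under 0.1 and its fold change at least 2, and 2 of the 7 genes were called, Fdft1 as higher and Ebpl as lower in S. Of all genes tested, 4.06% were called in this comparison, and 10.8% passed the adjusted p at any fold change, which again held for 2 of the 7. All 5 enzymes had higher means in S, with a median log2 fold change of 1.16 beside 0.10 over all genes, but 1 of them passed the test, and the median was 0.62 without S2. The ranges of S and C did not overlap for 1 of the 7 genes, Ebpl, and for 4.19% of all genes. Without S5, 5 of the 7 genes were called, with Hmgcs1, Mvd and Lss joining Fdft1 and Ebpl, and 545 of all genes, against 513 with all animals. S5 had the lowest enzymes of S, so leaving it out raises their S means by construction. Without C1, C6 or S1 no gene of the 7 was called, and without C2, C4, C5, NS2, NS3, NS5, S2, S3 or S4 it was 1.

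In NS vs C, where both groups lacked steatosis and differed in diet, none of the 7 genes was called by edgeR. None of the 7 had an unadjusted p under 0.05 in edgeR, beside 1048 of all genes tested. DESeq2 also called 0 of the 7, and 53 of all genes. Across all genes edgeR called 9, which is 0.0712% of those tested, and 0.0791% passed at any fold change. The 5 enzymes all had positive log2 fold changes, with a median of 0.49 (0.94 without C3) beside 0.01 over all genes, and their adjusted p values were 0.701 to 0.903. The ranges of NS and C overlapped for all 7 genes, while they did not overlap for 0.989% of all genes.

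S vs NS compared animals with and without steatosis on the same diet. None of the 7 was called by edgeR, at the set fold or at any fold. An unadjusted p under 0.05 in edgeR was reached by 1 of the 7, Ebpl, and by 1381 of all genes tested. DESeq2 called 0 of the 7 at the set fold, and 71 of all genes. In edgeR, 1 gene was called among all genes, 0.00791% of those tested, and the share was also 0.00791% at any fold. Ebpl was the only member whose ranges in S and NS did not overlap, beside 1.18% of all genes. The median log2 fold change of the 5 enzymes was 0.62, and that of all genes 0.04. Without S2 the enzyme median fell to 0.17, and Sqle and Lss were then below 0, at -0.23 and -0.24.

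When both HFD groups were weighted equally and set against C, 0 of the 7 genes were called by edgeR, beside 0.894% of all genes. At any fold change 1 of the 7 passed the adjusted p, Ebpl, and 2.67% of all genes did. DESeq2 called 0 of the 7 and 240 of all genes, against 113 of all genes in edgeR. Fdft1, Lss and Ebpl had an unadjusted p under 0.05 in edgeR, beside 2262 of all genes tested. No member had ranges in HFD and C that did not overlap, compared with 0.348% of all genes. This comparison shares its animals with those above, so the 4 sets of values are not independent of each other.

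**Figure D2:**
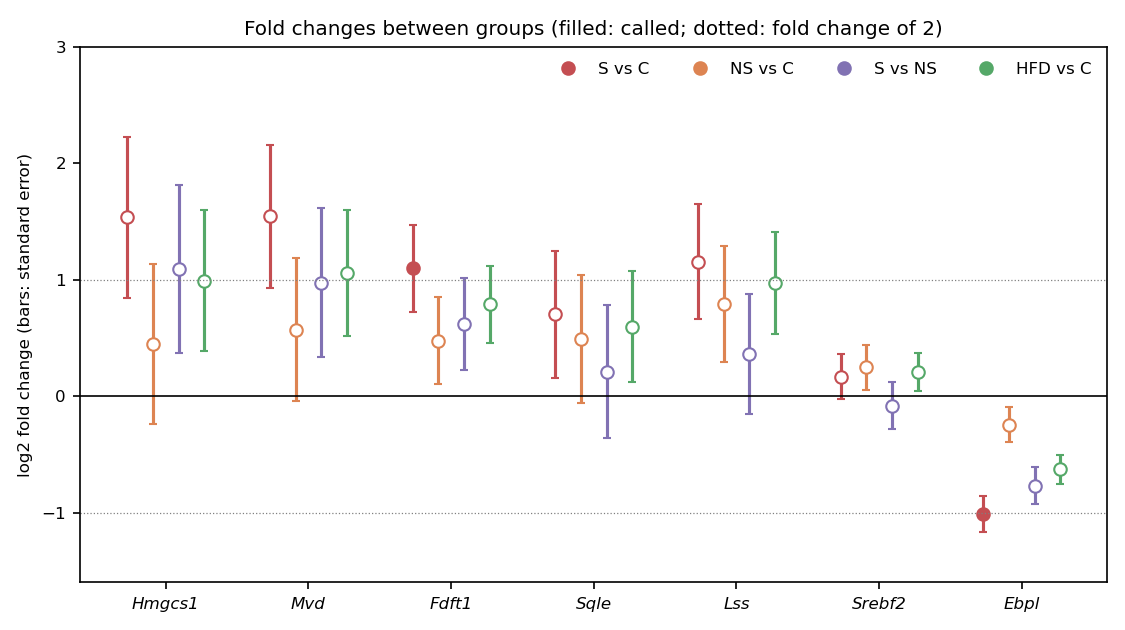
Log2 fold changes of the 7 genes in S vs C, NS vs C, S vs NS and HFD vs C from edgeR, with standard errors as bars, filled points for called genes and dotted lines at a fold change of 2 in either direction. The 5 enzymes are above 0 in every comparison with wide errors, and Ebpl is below 0 in every comparison with narrow ones.

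Hmgcs1, which condenses acetoacetyl-CoA with acetyl-CoA to HMG-CoA, had the largest SD of log2 CPM within groups among the members. In C its level ranged from 19.7 CPM in C4 through a median of 38.0 to 209.8 CPM in C3. In NS it was 78.0 CPM in NS1, 68.4 in NS2, 147 in NS3, 67.2 in NS4 and 91.7 in NS5. In S it was 219.8 CPM in S1, 558 in S2, 75.1 in S3, 95.0 in S4 and 18.8 in S5. The S animals thus lay on both sides of all others, and C3 stood above every NS animal. The log2 fold change of S vs C was 1.54 ± 0.69 (SE; adjusted p = 0.188, edgeR), and that of NS vs C was 0.45 ± 0.69 (adjusted p = 0.903). In S vs NS it was 1.09 ± 0.72 (adjusted p = 0.586). Leaving out S2 lowered the S vs C value to 0.62 and leaving out C3 raised it to 2.35, at which Hmgcs1 was called at an adjusted p of 0.0673. Without S2 the S vs NS value fell to 0.17, and without C3 the NS vs C value rose to 1.26.

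Mvd makes isopentenyl diphosphate, the building block of all isoprenoids, and its mean level was 19.0 ± 15.1 CPM (SD, n = 6) in C, 28.2 ± 16.1 (n = 5) in NS and 55.7 ± 48.8 (n = 5) in S. The C animals spanned 5.32 CPM in C6 to 40.9 CPM in C3, with a median of 12.4. NS animals were at 54.8, 20.02, 24.98, 12.4 and 29.0 CPM from NS1 to NS5. The S animals S1 to S5 were at 96.0, 119, 29.5, 24.3 and 9.25 CPM. The SM2 animal was the highest of NS and the second highest of C and of S. The log2 fold change was 1.55 ± 0.62 in S vs C (adjusted p = 0.141), 0.57 ± 0.61 in NS vs C (adjusted p = 0.850) and 0.97 ± 0.64 in S vs NS (adjusted p = 0.582).

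Fdft1 joins farnesyl diphosphate units to squalene, the step at which carbon is committed to sterols, and it was the member enzyme with the smallest spread. Levels in C ran from 46.9 CPM in C4 over a median of 70.4 to 166 CPM in C3. The NS animals in order of number had 117, 129, 136, 88.6 and 104 CPM, and the S animals had 261, 325, 80.5, 150.1 and 67.1 CPM. S3 and S5 lay below the lowest NS animal and within the range of C, so the groups overlapped. The log2 fold change in S vs C was 1.10 ± 0.37, a 2.14-fold higher level, at an adjusted p of 0.0931, just inside the threshold. The call was lost in 11 of the 16 fits that left out 1 animal, with adjusted p values from 0.0483 without C3 to 0.230 without S2. The animals whose removal ended the call were C1, C2, C4, C5, C6, NS2, NS3, NS5, S1, S2 and S4. It was also lost with sex as a covariate, at an adjusted p of 0.215, and in the male animals alone, at 0.162. Both of these fits take the S level from S1 and S3, so they are not separate checks. Other losses were in the BW animals alone, at 0.216, with only the groups compared, at 0.147, and with no low-count filter, at 0.102. In NS vs C the log2 fold change of Fdft1 was 0.48 ± 0.37 (adjusted p = 0.772), and in S vs NS it was 0.62 ± 0.39 (adjusted p = 0.565).

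Sqle, which adds oxygen to squalene and is a control point of the pathway, held the lowest single value relative to a gene's own mean. In C it spanned 33.5 CPM in C1 to 174 CPM in C3, with a median of 64.4. NS1 to NS5 had 81.7, 97.6, 133, 118 and 109 CPM. S1 to S5 had 194, 258, 64.4, 101 and 7.82 CPM. S5 was below every other animal and S2 above every other animal, a ratio of 33.0. The log2 fold change of Sqle was 0.70 ± 0.55 in S vs C (adjusted p = 0.453), 0.49 ± 0.55 in NS vs C (adjusted p = 0.857) and 0.21 ± 0.57 in S vs NS (adjusted p = 0.923).

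Lss, lanosterol synthase, had levels from 29.8 CPM in C1 to 122 CPM in C3 among the controls, with a median of 45.0. In NS the levels were 93.8, 83.1, 153, 63.2 and 118 CPM from NS1 to NS5. In S they were 161, 313, 103, 60.8 and 21.1 CPM from S1 to S5. All NS animals were above the C median, although C2 and C3 reached into their range. The log2 fold change of Lss was 1.16 ± 0.50 in S vs C (adjusted p = 0.171), 0.79 ± 0.49 in NS vs C (adjusted p = 0.701) and 0.36 ± 0.52 in S vs NS (adjusted p = 0.825). Without S2 the value of Lss in S vs C fell to 0.55.

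Srebf2 moved far less than the enzymes. Its mean was 106 ± 25.3 CPM in C, 126 ± 19.2 in NS and 119 ± 34.1 in S. In C it ranged from 81.8 CPM in C5 over a median of 98.4 to 148 CPM in C3. In NS it was 131, 95.1, 147, 123 and 132 CPM, and in S it was 119.6, 171, 88.0, 127 and 88.2 CPM, each in order of animal number. The highest animals were again S2, C3 and NS3. Log2 fold changes of Srebf2 were 0.17 ± 0.19 in S vs C (adjusted p = 0.633), 0.25 ± 0.19 in NS vs C (adjusted p = 0.771) and -0.08 ± 0.20 in S vs NS (adjusted p = 0.916). Counts of transcripts do not measure how much of the protein is cleaved. In the RefSeq annotation of another assembly, uncharacterised genes overlap Hmgcs1 and Ebpl, and the strand setting of the counting is not stated, so some reads of these 2 genes could belong to the overlapping ones.

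Ebpl went the other way and was the member that separated the S animals. In C it ranged from 96.6 CPM in C2 over a median of 124 to 159 CPM in C1. In NS it was 76.3 CPM in NS1, 107 in NS2, 106 in NS3, 135 in NS4 and 101 in NS5. In S it was 54.8 CPM in S1, 67.7 in S2, 57.8 in S3, 61.0 in S4 and 67.3 in S5. Every S animal lay below every C and every NS animal, although NS1 came near. The mean of 61.7 ± 5.70 CPM (SD, n = 5) in S compared with 105 ± 20.98 (n = 5) in NS and 125 ± 21.9 (n = 6) in C.

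The log2 fold change of Ebpl in S vs C was -1.01 ± 0.15 (adjusted p = 0.0125), and its unadjusted p of 4.18e-06 was the fourth smallest of all genes tested. Leaving out any 1 of the 16 animals kept the adjusted p between 0.00391 and 0.0319. The fold change stood at the threshold of 2, however, and fell just below it without C1, C6, S1 or S3, so the call at that fold was lost in 4 of the 16 fits. The log2 fold change was -0.996 with the low-count filter filterByExpr and -0.89 in the BW animals alone (adjusted p = 0.00795), both short of a fold of 2. In the male animals alone, where S held only S1 and S3, it was -1.15 (adjusted p = 0.0204). Because all females were in S, the fit with sex as a covariate also takes its S level from S1 and S3. In S vs NS the log2 fold change was -0.77 ± 0.16, with an unadjusted p of 0.000143 and an adjusted p of 0.214. That adjusted p was 0.0717 with sex as a covariate, 0.0947 with stock as a covariate, 0.0712 in the BW animals alone and 0.00513 in DESeq2, and 0.582 when only the animals of S and NS were fitted. In NS vs C the log2 fold change was -0.25 ± 0.15 (adjusted p = 0.695), and in HFD vs C it was -0.63 ± 0.13 (adjusted p = 0.0311).

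**Figure D3:**
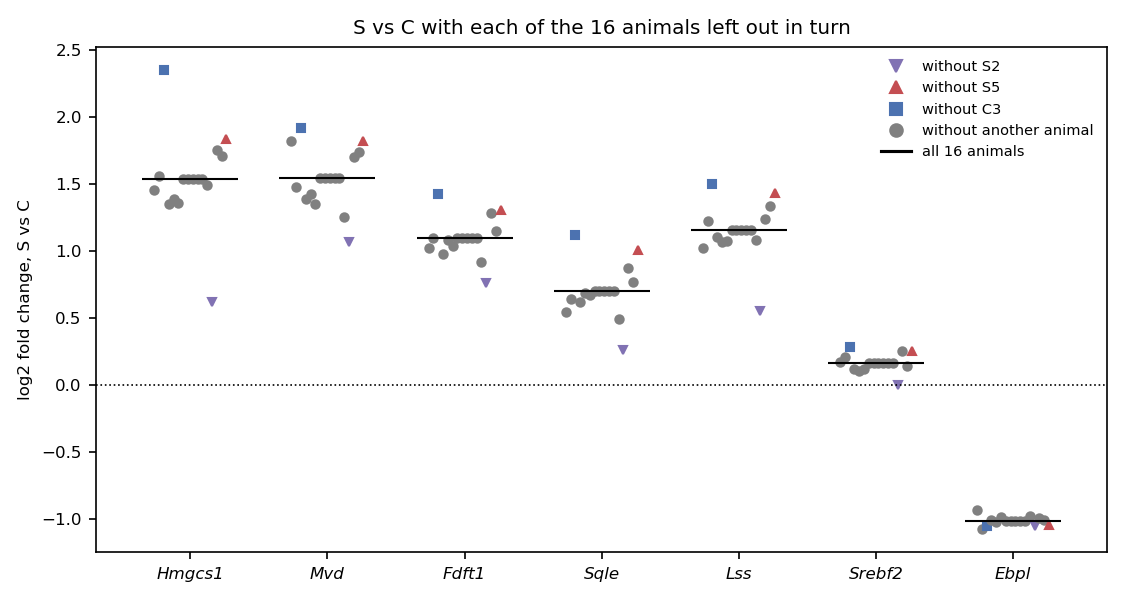
Log2 fold changes of the 7 genes in S vs C with each of the 16 animals left out in turn, with the value from all animals as a black line. The enzymes shift most without S2, C3 or S5, with Hmgcs1 moving between 0.62 and 2.35, while Ebpl stays between -1.08 and -0.93.

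Because NS and S were weighted equally, each value in HFD vs C lies midway between those of S vs C and NS vs C by construction. Log2 fold changes in HFD vs C were 0.99 ± 0.61 for Hmgcs1, 1.06 ± 0.54 for Mvd, 0.79 ± 0.33 for Fdft1, 0.60 ± 0.48 for Sqle and 0.97 ± 0.44 for Lss, and 0.21 ± 0.17 for Srebf2. Adjusted p values of these 6 genes were 0.218 to 0.530.

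The spread of the enzymes within groups was larger than that of most genes at or above the level of the lowest member. The SD of log2 CPM within groups was 1.31 for Hmgcs1, 1.21 for Sqle, 1.18 for Mvd, 0.97 for Lss and 0.69 for Fdft1. The median was 0.29 over the 4526 genes whose mean log2 CPM was at least that of the lowest member. These genes were not matched in abundance to each enzyme. Hmgcs1 stood at the 99.0 percentile of these genes and Fdft1 at the 93.8 percentile. Srebf2, at 0.33, was at the 60.2 percentile, and Ebpl, at 0.24, at the 29.6 percentile. These places are a description of the 16 livers.

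Across the 16 animals, the 21 pairs of members were correlated on log2 CPM, with two-sided permutation tests of 100000 resamples adjusted over the 21 pairs. All 10 pairs of enzymes had a positive Pearson's r, from 0.575 for Mvd with Sqle to 0.921 for Hmgcs1 with Fdft1, and all 10 had an adjusted permutation p under 0.05. For Hmgcs1 and Fdft1, Spearman's rho was 0.918 and the permutation p was 1e-05, the smallest that this number of resamples can give (adjusted p = 0.000105). When the values were centred within C, NS and S, the r of the 10 pairs lay between 0.619 and 0.911, and 9 of the 10 passed. The exception was Mvd with Sqle, at an adjusted permutation p of 0.0543. Without the 2 animals farthest from the median of the first gene, the 10 values of r were 0.529 to 0.892, and in the 13 BW animals alone they were 0.641 to 0.945.

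Srebf2 followed its enzymes in rank although its range was narrow. Its r with the 5 enzymes was 0.649 with Sqle to 0.854 with Hmgcs1, and all 5 adjusted permutation p values were 0.00481 or less, both pooled over 16 animals. Spearman's rho of these 5 pairs was 0.632 to 0.794. Centred within groups, the same 5 pairs gave 0.624 to 0.870, with adjusted permutation p values of at most 0.0489. Without the 2 farthest animals r was 0.544 to 0.785. Of the 12638 other genes tested, Hmgcs1 was the one most like Srebf2.

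Ebpl did not follow them. Its r with the 5 enzymes was negative throughout, from -0.555 with Fdft1 to -0.0986 with Sqle, and 1 of the 5 pairs, Fdft1, passed at an adjusted permutation p of 0.0343. For that pair Spearman's rho was -0.526 (adjusted permutation p = 0.0511). With 1 animal left out, the r of that pair was -0.663 to -0.450. In the BW animals alone it was -0.373, and centred within groups it was -0.290. Without the 2 farthest animals it was -0.340. The r of Hmgcs1, Lss and Sqle with Ebpl, by contrast, became more negative without 2 animals, at -0.555, -0.601 and -0.404. Centred within groups the 5 values were -0.374 to -0.198 and none passed the permutation test, with the lowest unadjusted p at 0.0772. With Srebf2, Ebpl had an r of -0.194 (adjusted permutation p = 0.49).

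**Figure D4:**
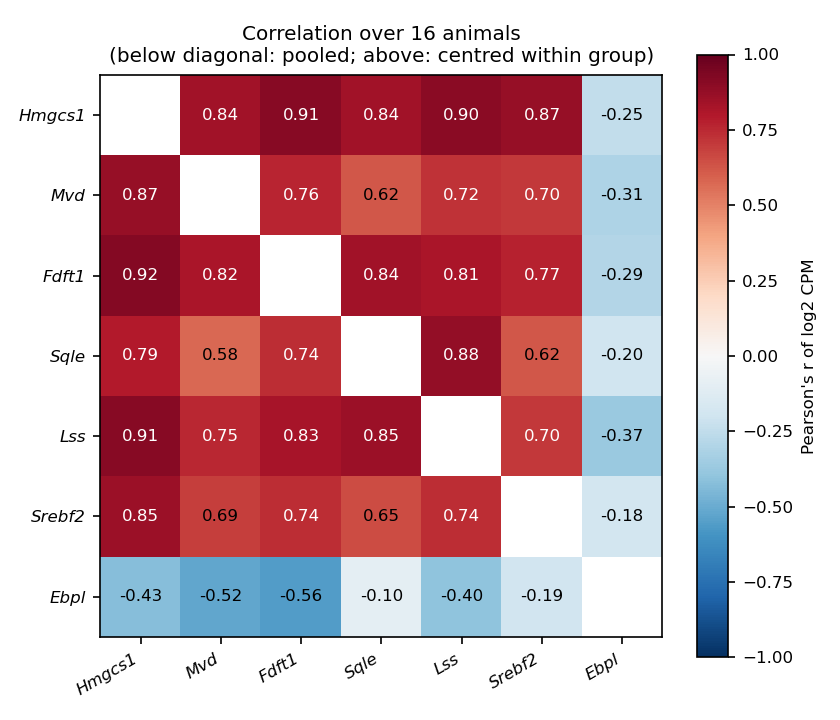
Pearson's r of log2 CPM over the 16 animals for each pair of the 7 genes, pooled below the diagonal and centred within C, NS and S above it. The enzymes and Srebf2 form a block from 0.575 to 0.921 in the pooled values, and the row and column of Ebpl are negative.

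The genes most like the enzyme mean were then read from the 12632 other genes tested, as a description with no test, since all points share their library. Idi1, the isopentenyl diphosphate isomerase, came first with an r of 0.927. It was followed by Erg28, a scaffold of sterol enzymes in the endoplasmic reticulum, at 0.922, Nsdhl at 0.910 and Hsd17b7 at 0.902, both of which act in sterol demethylation, and Fdps, the farnesyl diphosphate synthase, at 0.898. Within groups these 5 values were 0.964, 0.913, 0.902, 0.898 and 0.900. Among the first 25 genes, 7 were other enzymes of cholesterol synthesis.

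**Figure D5:**
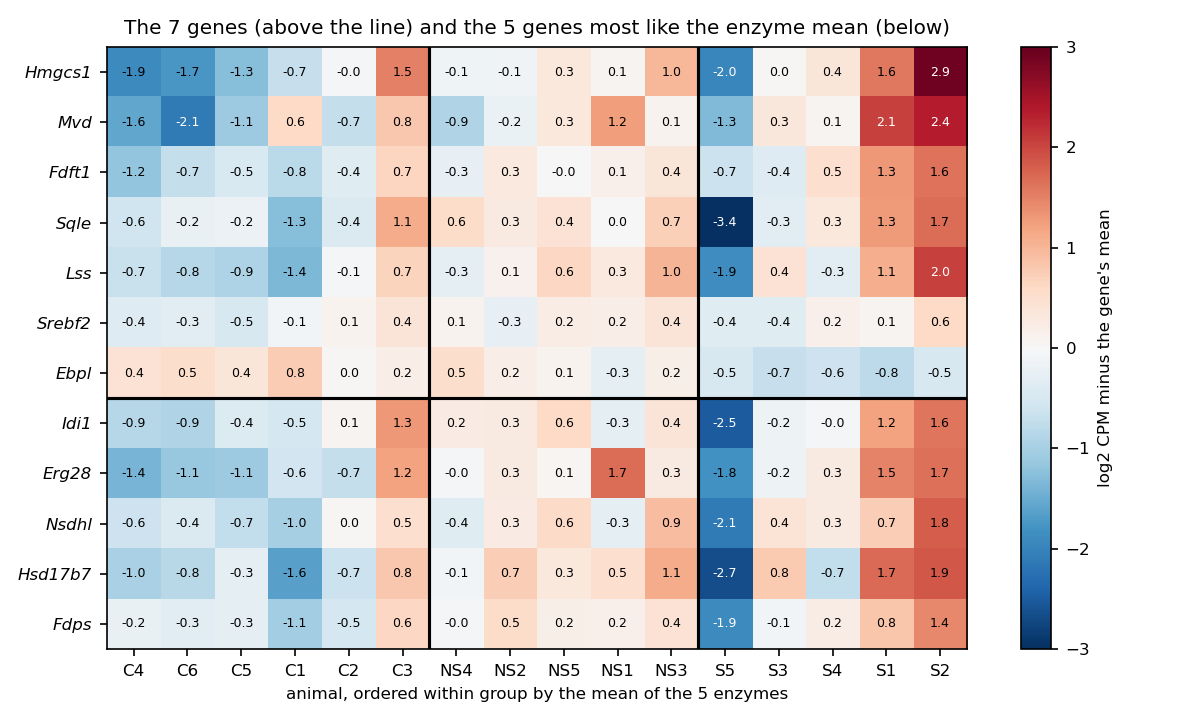
Log2 CPM minus each gene's mean, printed and coloured, for the 7 genes (above the line) and for the 5 genes most like the enzyme mean (below it) in 16 animals, ordered within C, NS and S by the enzyme mean. S5 is the lowest column of S and S2 the highest for the enzymes and for all 5 genes below the line, and Ebpl is negative in all S animals.

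For 4 of the enzymes the most similar gene was another sterol gene. For Hmgcs1 and Fdft1 it was the other of the pair. Sqle was most like Fdps, with an r of 0.959, and Lss was most like Nsdhl, with an r of 0.955. Ebpl was most like Pcp4l1, with an r of 0.910 that fell to 0.709 when centred within groups.

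Of 17 other cholesterol synthesis enzymes, chosen like all lists here with earlier results of these data known, 16 had a positive r with the enzyme mean, with a median of 0.731 and a range of -0.398 to 0.927. The median over all genes was -0.01. None of the 17 was called in any of the 4 comparisons by edgeR or by DESeq2. In S vs C, 2 of the 17 had an unadjusted p under 0.05 in edgeR, beside 3010 of 12639 genes. Their log2 fold changes in S vs C were positive for 12 of 17, with a median of 0.29 beside 0.10 over all genes. The gene with the negative r was Ggps1, which makes geranylgeranyl diphosphate for side branches of the pathway. It was at 13.9 ± 2.59 CPM in C, 11.8 ± 1.93 in NS and 9.84 ± 1.32 in S, and its log2 fold change in S vs C was -0.50 ± 0.17 at an adjusted p of 0.0925, below a fold of 2. That adjusted p stayed under 0.1 in 3 of the 16 fits without 1 animal, and rose to 0.254 with library totals alone.

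Among 12 genes of sterol sensing and SREBP processing, 2 had an adjusted p under 0.1 in S vs C, both higher, and 1 of them, Srebf1, was called, beside 10.8% and 4.06% of all genes. Srebf1 encodes SREBP-1, whose main targets are genes of fatty acid synthesis. It was at 42.4 to 264 CPM in C, with a median of 148. The NS animals from NS1 to NS5 had 1492, 711, 526, 237 and 762 CPM, and S1 to S5 had 1501, 559, 1011, 521 and 626 CPM. All S animals and 4 of the 5 NS animals lay above all controls. Its log2 fold change was 2.50 ± 0.49 in S vs C (adjusted p = 0.0198), 2.32 ± 0.49 in NS vs C (adjusted p = 0.140, or 0.000716 in DESeq2, which called it) and 2.41 ± 0.45 in HFD vs C (adjusted p = 0.0235). S5, which had the lowest enzymes, had more Srebf1 than S2, which had the highest. Scap, the escort protein of both SREBPs, was at 217 ± 63.4 CPM in C, 294 ± 48.2 in NS and 383 ± 147 in S, with a log2 fold change in S vs C of 0.82 ± 0.26 (adjusted p = 0.0731, under 0.1 in 10 of the 16 fits without 1 animal). Across the animals Scap had an r of 0.825 with the enzyme mean and Srebf1 an r of 0.534. Without the 2 animals farthest from the median of the enzyme mean, the order reversed, with 0.717 for Scap and 0.779 for Srebf1. Centred within groups, the values were 0.798 for Scap and 0.367 for Srebf1.

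Of 9 genes of cholesterol esterification and efflux, none was called by edgeR. An adjusted p under 0.1 was reached by 1 of the 9, Soat2, in S vs C and in HFD vs C. Over all genes, 10.8% reached it in S vs C and 2.67% in HFD vs C. At an unadjusted p under 0.05 there were 3 of the 9 in S vs C, beside 3010 of 12639 genes. DESeq2 called 1 of the 9 there, Abcg1, named after its value was seen, and 550 of all genes. Soat2 esterifies cholesterol in hepatocytes for storage and secretion. It was at 21.4 ± 4.66 CPM in C, 32.7 ± 5.43 in NS and 31.2 ± 4.56 in S. Its log2 fold change was 0.55 ± 0.17 in S vs C (adjusted p = 0.0663) and 0.58 ± 0.14 in HFD vs C (adjusted p = 0.0652). These stayed under 0.1 in 9 and in 10 of the 16 fits without 1 animal. None of the 9 genes was among the first 25 of likeness to the enzyme mean, and their median r was -0.11.

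Stock was compared within groups because each group held 1 SM2 animal, a comparison chosen after the data were seen. None of the 7 genes was called between SM2 and BW by edgeR with group and stock in 1 fit, at the set fold or at any fold, whereas 10.8% and 21.8% of all genes were. Mvd had the smallest p of the 7. It averaged 62.0 CPM in the 3 SM2 animals and 26.8 CPM in the 13 BW animals, a log2 fold change of 1.20 ± 0.53 with an unadjusted p of 0.0364 and an adjusted p of 0.140.

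Pc, the composite correlation used in the study, is Pearson's r between a gene's correlations with all other genes in one group and those in another. It was calculated on the counts as deposited and is given as a description. Pc of the members in S vs C ran from -0.15 for Sqle to 0.26 for Mvd, with a median over all genes of 0.20. In NS vs C the range was -0.05 for Ebpl to 0.35 for Mvd, beside a median of 0.10, and in S vs NS it was -0.23 for Sqle to 0.38 for Mvd, beside 0.17. The jackknife standard errors of the 21 values were 0.13 to 0.46. The high Pc of Mvd fell from 0.35 to 0.06 in NS vs C, and from 0.38 to 0.08 in S vs NS, when the BW animals alone were used. The Pc of Sqle in S vs NS turned from -0.23 to 0.07 without S1. For Ebpl in S vs C, Pc was 0.20 on counts and -0.34 on CPM by library total, so its direction depended on the scaling. The sign also changed for some enzymes. In S vs NS, Pc went from -0.11 on counts to 0.18 on CPM for Hmgcs1, from -0.12 to 0.24 for Lss and from -0.0083 to 0.10 for Fdft1. These enzymes also turned from negative to positive in NS vs C, as did Fdft1 in S vs C. Mvd, Sqle and Srebf2 kept their sign in every comparison. The medians over all genes moved as well, and on CPM by library total they were 0.10 for S vs C, 0.15 for NS vs C and 0.17 for S vs NS. S vs C thus had the lowest median on CPM and the highest on counts. The paper reports its lowest average Pc in S vs C, unlike the medians on counts, and does not state the scaling of its values.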

How the data were processed

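RNA from the livers of 16 deer mice was sequenced as paired-end reads. The authors mapped them with STAR v2.7.2, using the HU_Pman_2.1 assembly. Unique alignments were summed over Ensembl genes by featureCounts, and the raw counts were deposited under gene symbols. The strand setting and the conversion to symbols are not given in the sources used here. Groups, stock and sex were taken from the labels, which describe the animals as biological replicates and number no pairs. Within each group the counts of every 2 animals differed by more than sampling noise.

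Groups were compared on these counts by the quasi-likelihood test of edgeR 4.0.16 (R 4.3.3) with TMM, in a single fit of the 16 animals that held no covariate. Genes that reached 0.5 CPM in any animal entered the fit, which left 12639. The thresholds were those of the study, a false discovery rate of 0.1 by Benjamini-Hochberg and a 2-fold change. SE was the log2 fold change divided by the square root of F. In HFD vs C the coefficients of NS and S were weighted equally. Correlations used log2 CPM with a prior count of 2. Python 3.11.15, numpy 2.4.6, pandas 2.3.3, scipy 1.17.1 and matplotlib 3.10.9 were used, and the procedures were tested on simulated data.

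The members and the gene lists were chosen with earlier results of these data known. Named are the 7 members, every listed gene with an adjusted p under 0.1 (at most 4 in each list and comparison), the 5 genes most like the enzyme mean and the gene most like each member, except for items that are not reported here. Genes of the marker lists and the comparison of stocks were added after values were seen. Alternatives were RLE size factors, library totals, DESeq2 1.42.0, other low-count filters, fits of only the groups compared, sex or stock as a covariate, BW or male animals alone, other thresholds and each animal left out. Sequences of the members were not used here.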

Additional observations from a re-analysis of the deposited data

Results flagged for a closer look

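On the scale of CPM, C3 stood apart from the other 5 control animals for 3 of the 5 enzymes. Hmgcs1 was at 209.8 CPM in C3 and at 71.9 CPM in the next animal of C. Fdft1 was at 166 CPM in C3 and at 81.6 in the next, and Sqle was at 174 CPM in C3 and at 71.5 in the next. In each case the gap in CPM exceeded Dixon's 95% critical value for 6 samples. Of 21 sets of values tested, 1 for each gene and group, these 3 passed. The chance rate of about 1 in 20 holds for normally distributed values, which CPM was not shown to be. The gaps were not tested on log2 CPM, the scale used for spread and correlations, so the flag on C3 holds for CPM only. Since the 3 genes vary together, they are not 3 separate observations.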

How the results depend on the processing

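In S vs C, 1 member was called, Ebpl, with no low-count filter, with only the groups compared or with sex as a covariate. Ebpl was also the 1 member called in male animals alone and at an adjusted p under 0.05. With filterByExpr the 1 member called was Fdft1, and the log2 fold change of Ebpl was -0.996. The number of members called in S vs C was 3 with library totals alone (Mvd, Fdft1 and Lss) and with stock as a covariate (Mvd, Fdft1 and Ebpl). In the BW animals alone it was 0, and leaving out 1 animal gave 0 to 5. At any fold change 1 member passed in HFD vs C. Over all genes, S vs C called 927 with library totals, 209 at an adjusted p under 0.05, 1359 at any fold and 192 to 573 without 1 animal (219 without C4, 247 without C5, 192 without C6, 245 without S3). NS vs C called 53 in DESeq2, 29 with stock as a covariate, 5 at an adjusted p under 0.05 and 2 to 29 without 1 animal. S vs NS called 71 in DESeq2, 0 with only the groups compared, 191 with sex and 17 with stock as a covariate, 18 in BW animals, 157 in males and 1 to 15 without 1 animal. HFD vs C called 213 with library totals, 240 in DESeq2, 228 with sex and 231 with stock as a covariate, 42 at an adjusted p under 0.05, 338 at any fold and 36 to 234 without 1 animal. The causes were not tested.

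Some small log2 fold changes changed sign. Srebf2 in S vs C was -0.025 with sex as a covariate, -0.025 in males and -0.00049 to 0.29 without 1 animal. In S vs NS, Sqle was -0.071 in BW animals and -0.23 to 0.52 without 1 animal, and Lss was -0.24 to 0.64. Also in S vs NS, Srebf2 was 0.038 and Soat2 0.062 with library totals, and without 1 animal Srebf2 was -0.25 to 0.016, Soat2 -0.15 to 0.022 and Srebf1 -0.13 to 0.59. The 21 Pc values were each checked under other scalings and in BW animals. In 12 of these checks, spread over 8 of the 21 values, Pc moved by over 1 jackknife SE, and in 51 checks it did not. The correlation of Sqle with Ebpl was 0.176 in BW animals and -0.479 to 0.0273 without 1 animal.

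With library totals alone, which leave the depth of shared genes unscaled, Ebpl in S vs C was -0.77 and no longer past the fold of 2. No paired analysis was possible because the labels give no number shared between animals of different groups. Groups of 5 or 6 livers with a spread as wide as that of the enzymes leave the fold changes of the enzymes with standard errors of 0.37 to 0.69 in S vs C, and the 3 females leave sex unresolved in S.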
